A study of Mus musculus with 8 samples.

Results

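*Mest*, *Sfrp5*, *Bmp3* and *Npr3* are 4 genes known as markers of the expansion of white adipose tissue (WAT). They were chosen by their symbols in the gene column of the deposited FPKM table, and they are 4 of the 37654 genes to which its transcripts could be assigned. The table lists 14 transcripts of these 4 genes among its 91969 transcripts: 11 of *Mest* and 1 each of *Sfrp5*, *Bmp3* and *Npr3*. RNA with a poly(A) tail from inguinal (ING) WAT of C57BL/6j mice was sequenced in 4 mice at postnatal day 21 (PN21: m1, m49, m138 and m145), the age of weaning, and in 4 mice at postnatal day 98 (PN98: m35, m106, m114 and m125), in young adulthood. The labels name no engineered allele. All came from C57BL/6jOlaHsd breeders on the synthetic diet AIN93G, and all were fasted before dissection. In the study PN98 mice had received either AIN93M or a western style diet from postnatal day 42 on. The labels do not say which diet the sequenced PN98 mice received, so that age and diet cannot be told apart in these samples. The study killed female pups at PN21 and kept males, and the labels give no sex. The Y-linked gene *Ddx3y* was listed at 18.1 to 22.1 FPKM at PN21 and at 19.9 to 25.9 FPKM at PN98. *Eif2s3y*, also Y-linked, was listed at 45.8 to 84.5 FPKM and at 38.9 to 70.4 FPKM, *Kdm5d* at 3.72 to 6.01 and 2.41 to 5.26, and *Uty* at 3.49 to 5.68 and 3.28 to 5.02. Every mouse thus held Y-linked RNA, and the paper also took epididymal WAT from its PN21 mice. *Xist*, which is transcribed from the inactive X chromosome of females, was listed at 0.247 to 0.832 FPKM at PN21 and at 0 to 0.00704 FPKM at PN98, with no overlap between the ages.

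*Mest*, mesoderm specific transcript, encodes a membrane protein of the alpha/beta hydrolase fold family, is imprinted and transcribed from the paternal allele, and is known in mouse WAT as a marker of fat mass expansion whose level varies widely among genetically identical mice. Sfrp5 is a secreted frizzled-related protein that binds Wnt ligands and keeps them from their receptors. Bmp3 is an atypical bone morphogenetic protein that counteracts other BMP and activin signals through the type II receptor Acvr2b, and Npr3 is the clearance receptor that takes natriuretic peptides, which stimulate lipolysis in fat, out of the circulation. In bulk tissue, fewer cells that express a gene and less RNA of it per cell cannot be told apart.

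On the mm10 build the genes lie apart in the genome. *Mest* (ENSMUSG00000051855) occupies chr6:30723547-30748465 on the plus strand, *Sfrp5* (ENSMUSG00000018822) chr19:42197971-42202252 on the minus strand, *Bmp3* (ENSMUSG00000029335) chr5:98854415-98884396 on the plus strand and *Npr3* (ENSMUSG00000022206) chr15:11839896-11907287 on the minus strand. RefSeq promoter windows of the same assembly (GRCm38.p6), which hold 250 bases before and 50 bases after a start site, were at hand for 3 of the 4 genes. *Bmp3* had no entry. *Mest* has more than 1 start, and windows of 2 of them are shown because the FPKM values below differ between them. The window of *Sfrp5* is shown because its start at base 42202252 is also the start of the transcript quantified. The window of *Npr3* starts at another base than the quantified transcript and is not shown. Capitals mark the letters GGGCGG, a GC box, and CCAAT, each searched on both strands, and the sequences read from 5′ to 3′ on the strand of the gene.
*Mest* downstream start, chr6:30737800-30738099, plus strand: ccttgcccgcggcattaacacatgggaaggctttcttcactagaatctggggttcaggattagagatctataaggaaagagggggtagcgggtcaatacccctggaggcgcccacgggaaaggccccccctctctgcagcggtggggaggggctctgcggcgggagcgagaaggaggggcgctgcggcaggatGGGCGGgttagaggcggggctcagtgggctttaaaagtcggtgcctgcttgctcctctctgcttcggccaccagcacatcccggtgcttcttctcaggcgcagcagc
*Mest* upstream start, chr6:30733256-30733555, plus strand: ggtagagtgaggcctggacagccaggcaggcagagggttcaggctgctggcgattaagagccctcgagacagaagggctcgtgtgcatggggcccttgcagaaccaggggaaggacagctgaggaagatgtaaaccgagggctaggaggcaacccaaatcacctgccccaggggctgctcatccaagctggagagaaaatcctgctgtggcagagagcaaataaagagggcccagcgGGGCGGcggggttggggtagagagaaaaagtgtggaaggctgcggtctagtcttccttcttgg
*Sfrp5*, chr19:42202203-42202502, minus strand: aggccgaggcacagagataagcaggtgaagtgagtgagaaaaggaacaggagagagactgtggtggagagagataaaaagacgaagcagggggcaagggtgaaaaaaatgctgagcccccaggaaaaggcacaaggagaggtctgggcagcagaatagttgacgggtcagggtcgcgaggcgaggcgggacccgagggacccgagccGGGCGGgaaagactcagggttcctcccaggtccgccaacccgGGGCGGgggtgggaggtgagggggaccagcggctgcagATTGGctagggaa

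GGGCGG was found 1 time in each *Mest* window and 2 times in the *Sfrp5* window, and 35.7% of all 32851 promoter windows held it. CCAAT was found 1 time in the *Sfrp5* window, on the opposite strand after the start, and 1 time in the *Npr3* window that is not shown. It was in neither *Mest* window, and 37.4% of all windows held it. The TATA box letters TATAAA were in none of the 3 windows and in 13.6% of all windows. The E-box letters CACGTG were likewise in none of the 3 and in 7.15% of all, and the nuclear receptor letters AGGTCA in none of the 3 and in 16.3% of all. The downstream *Mest* window held 17 CpG dinucleotides, the upstream one 8 and the *Sfrp5* window 15, against a median of 7 over all windows.

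*Mest* was listed in PN21 mice at 27.5 FPKM in m1, 13.7 in m49, 18.2 in m138 and 28.3 in m145, as the sum over its transcripts. In PN98 mice it was listed at 252 FPKM in m35, 71.6 in m106, 119.5 in m114 and 33.4 in m125. Every PN98 mouse was above every PN21 mouse, but m125 was only 1.18 times as high as m145, while m35 was 7.56 times as high as m125. *Mest* averaged 21.9 ± 7.14 FPKM over the PN21 mice and 119 ± 95.5 FPKM over the PN98 mice (SD, n = 4 each). On the log2(FPKM + 1) scale, on which all gene-level fold changes are given and which understates the change of low genes, its log2 fold change was 2.09 (standard error 0.57), with an adjusted p of 0.0706 from limma with Benjamini-Hochberg adjustment over all 15920 genes tested. The paper also measured *Mest* and *Lep*, the leptin gene, by quantitative PCR in ING WAT of larger groups of mice and reported no increase with age there. By that method it did report a rise of both in ING WAT on the western style diet. Its sequencing of ING WAT, by contrast, listed *Lep* among the white adipocyte markers higher at PN98, at an unadjusted p under 0.05 from limma.

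*Sfrp5* was listed in PN21 mice at 2.94 FPKM in m1, 1.66 in m49, 3.45 in m138 and 5.72 in m145. In PN98 mice it was listed at 148 FPKM in m35, 17.5 in m106, 105.6 in m114 and 6.999 in m125. The ages did not overlap, and the PN98 mice fell into a pair of high levels (m35 and m114) and a pair of lower ones (m106 and m125), 21.1-fold apart at the extremes. *Sfrp5* averaged 3.44 ± 1.69 FPKM over the PN21 mice and 69.4 ± 68.3 FPKM over the PN98 mice (SD, n = 4 each). *Sfrp5* had the highest log2 fold change of the 4 genes, 3.22 (standard error 0.89), which ranked 18 among all genes tested, and an adjusted p of 0.0761 from limma.

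*Bmp3* was listed in PN21 mice at 4.04 FPKM in m1, 2.20 in m49, 2.49 in m138 and 5.27 in m145. In PN98 mice it was listed at 27.98 FPKM in m35, 11.8 in m106, 18.7 in m114 and 6.12 in m125. The ages did not overlap, with m125 1.16 times as high as m145. *Bmp3* averaged 3.50 ± 1.43 FPKM over the PN21 mice and 16.2 ± 9.42 FPKM over the PN98 mice (SD, n = 4 each). Its log2 fold change was 1.80 (standard error 0.43), with an adjusted p of 0.0505 from limma.

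*Npr3* was listed in PN21 mice at 18.0 FPKM in m1, 7.75 in m49, 9.99 in m138 and 20.1 in m145. In PN98 mice it was listed at 115 FPKM in m35, 75.9 in m106, 169 in m114 and 38.0 in m125. Here the gap between the ages was widest, since the lowest PN98 mouse was 1.89 times as high as the highest PN21 mouse. *Npr3* averaged 14.0 ± 6.01 FPKM over the PN21 mice and 99.4 ± 55.9 FPKM over the PN98 mice (SD, n = 4 each). *Npr3* rose between PN21 and PN98, with a log2 fold change of 2.64 (standard error 0.48) and an adjusted p of 0.0214 from limma. The call rested on single mice: without m49 or m138 of PN21, or m106 or m114 of PN98, the adjusted p of *Npr3* lay between 0.0556 and 0.0659.

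**Figure D1:**
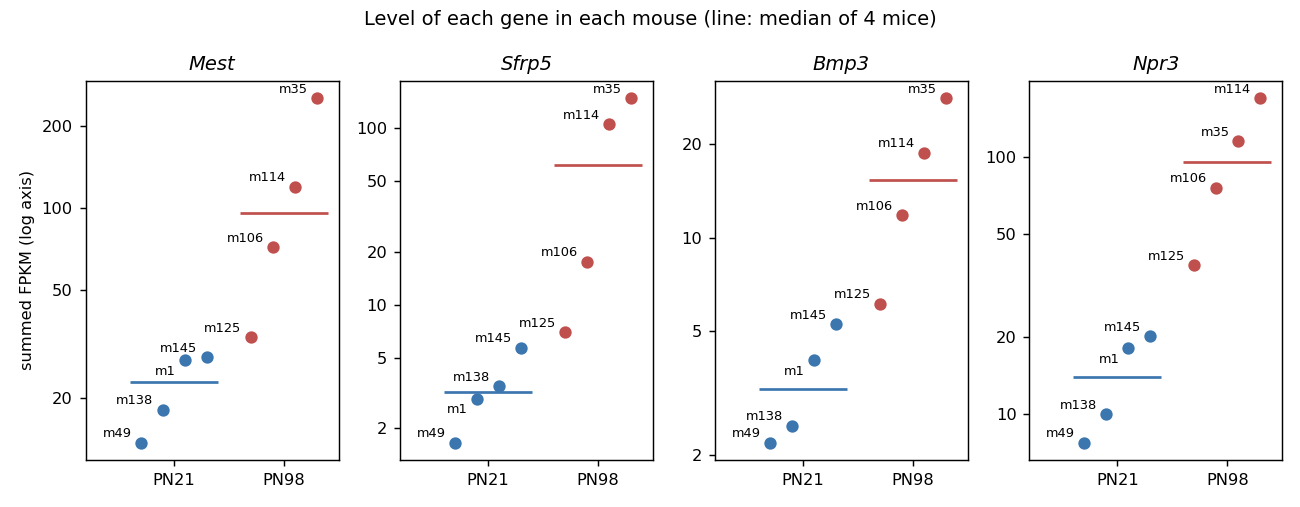
Summed FPKM (log axis) of *Mest*, *Sfrp5*, *Bmp3* and *Npr3* in each of 4 PN21 mice (blue) and 4 PN98 mice (red), with a line at the median of each age. In each panel all PN98 mice lie above all PN21 mice, and m125 is the lowest PN98 mouse.

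Thus 1 of the 4 genes passed the adjusted threshold of 0.05 as higher at PN98, where 2.42% of all 15920 genes tested did and 3.07% passed as lower. All 4 had an unadjusted p under 0.05 as higher, which 8.25% of the genes tested had. All 4 genes separated the ages with every PN98 mouse above every PN21 mouse, which held for 6.13% of the genes tested, while 10.1% had every PN98 mouse below every PN21 mouse. In a two-sided exact permutation test of log2(FPKM + 1) over the 70 splits of 8 mice into 4 and 4, each of the 4 genes gave p = 0.0286, the smallest value this design allows. The spread between mice was larger at PN98 than at PN21 for each gene on the log2 scale, with an SD of 0.48 against 1.21 for *Mest*, 0.55 against 2.02 for *Sfrp5*, 0.46 against 0.87 for *Bmp3* and 0.61 against 0.91 for *Npr3*; the difference in spread was not tested. FPKM values are per length and can be set side by side between genes. At PN21 *Mest* and *Npr3* were the higher pair and overlapped each other, and *Sfrp5* and *Bmp3* were the lower pair and overlapped each other. At PN98 *Bmp3* had the lowest mean and lay below every *Mest* and *Npr3* value, and the ranges of *Mest*, *Npr3* and *Sfrp5* overlapped.

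The calls depended on the scaling of the libraries. As deposited, all genes tested had a median log2 fold change of −0.21. That median was −0.015 after median of ratios scaling, and −0.00062 after the mice were brought to an equal sum of FPKM over genes outside the mitochondrial genome. Between 51.1% and 60.4% of each PN21 sum, and between 43.2% and 51.8% of each PN98 sum, came from mitochondrial genome transcripts. With median of ratios scaling all 4 genes passed the threshold, with log2 fold changes of 2.31 for *Mest* (adjusted p = 0.0269 from limma), 3.40 for *Sfrp5* (0.0426), 1.99 for *Bmp3* (0.0177) and 2.86 for *Npr3* (0.00945). With scaling to genes outside the mitochondrial genome *Sfrp5* did not pass (3.43, adjusted p = 0.0562 from limma) and the other 3 genes did. Leaving out m125 brought the adjusted p of all 4 genes under the threshold, to between 0.0146 and 0.0299 with limma, and leaving out m35 did so for *Mest*, *Bmp3* and *Npr3*.

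**Figure D2:**
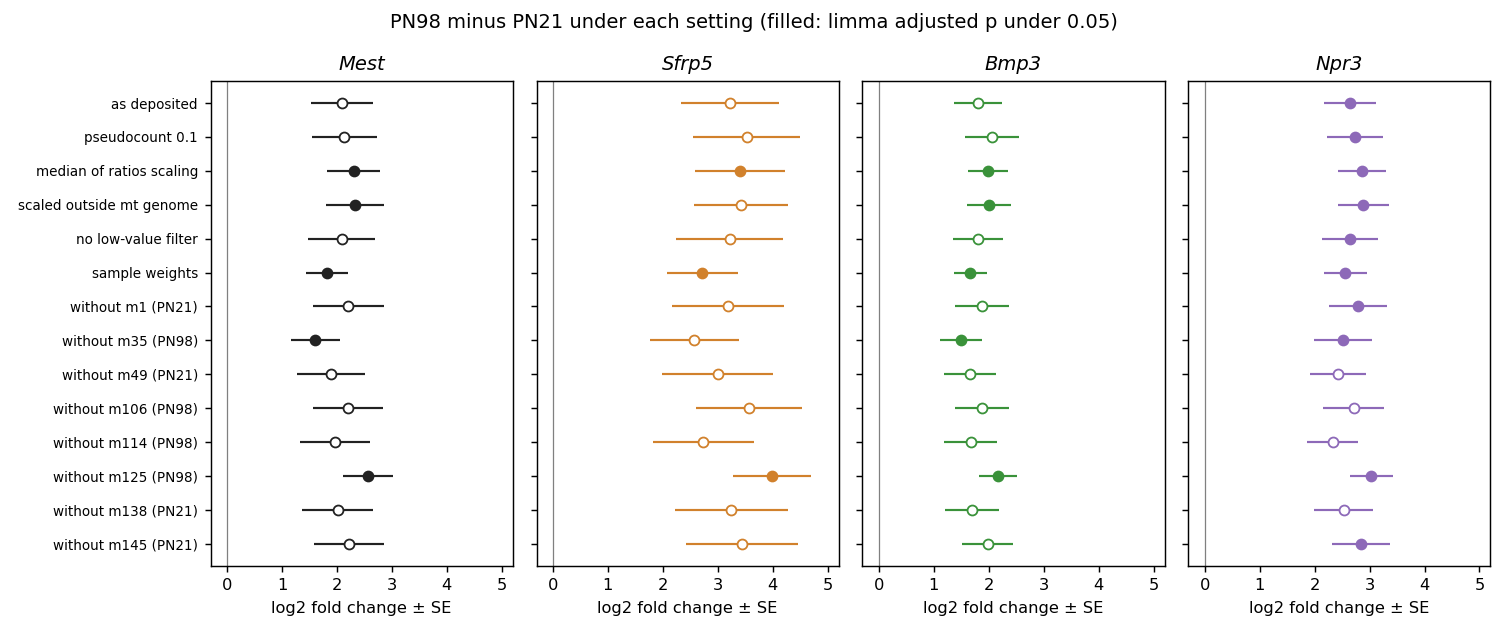
Log2 fold change of summed FPKM (PN98 minus PN21) with its standard error for each gene, as deposited, under 5 other settings and without each mouse in turn, with filled circles where the limma adjusted p was under 0.05. Each estimate lies above 0, from 1.49 for *Bmp3* without m35 to 3.98 for *Sfrp5* without m125.

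*Mest* was carried by 1 transcript. Mest-211 (protein coding, chr6:30738050-30748455) held 71.8% to 91.9% of the summed FPKM in each mouse. It was listed at 19.7, 11.47, 15.6 and 25.97 FPKM in m1, m49, m138 and m145 of PN21, and at 219, 63.3, 104.5 and 25.89 FPKM in m35, m106, m114 and m125 of PN98. Taken by itself, Mest-211 overlapped between the ages, since m125 was just below m145. Mest-203, a retained intron transcript at chr6:30742076-30743140, was listed at 5.78, 1.83, 1.67 and 1.96 FPKM in the same PN21 mice and at 25.9, 6.56, 10.3 and 5.07 FPKM in the same PN98 mice. Mest-203 overlapped between the ages as well, since m125 was below m1. Its share of *Mest* lay between 6.95% and 21.0%. Of the other 9 transcripts none exceeded 3.57 FPKM in any mouse, and 2 of them, Mest-206 and Mest-209, were listed at 0 in all 8 mice.

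Grouped by where they start, 3 *Mest* transcripts begin at the downstream start shown above, between bases 30738050 and 30738055 of chromosome 6, and held 79.0% to 91.9% of the summed FPKM. The 5 transcripts that begin upstream of it were together listed at 1.48 FPKM in m125 and at no more than 0.00114 FPKM in every other mouse. The value in m125 was that of Mest-201, which begins at base 30723547, outside the upstream window shown above. Mest-210, which begins at base 30733506 in that window, did not exceed 1.97e-07 FPKM in any mouse. The transcripts that begin inside the gene, all 3 of them annotated as retained introns, held 8.09% to 21.0%. FPKM of overlapping transcripts are estimates that share reads, and the 3′ end of Mest-211 overlaps *Copg2* on the opposite strand. The library kit kept the strand, and whether the counting used it is not given in the sources used here.

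**Figure D3:**
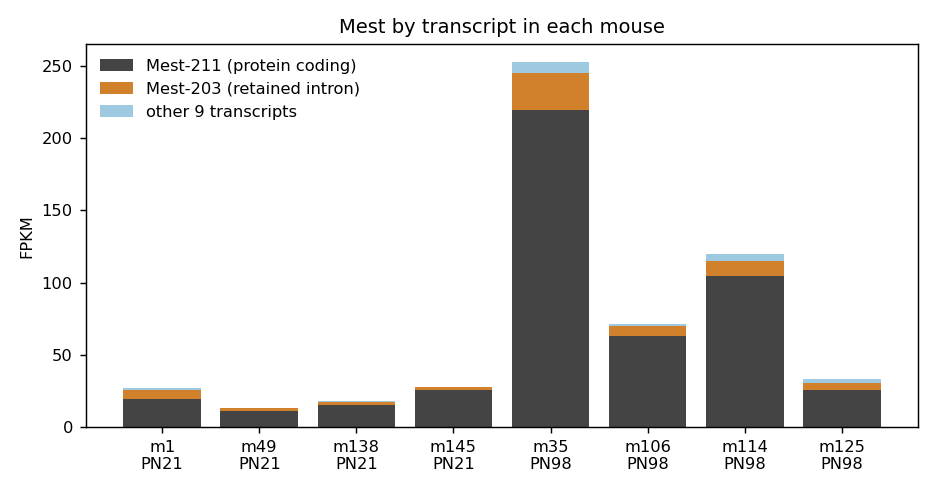
FPKM of *Mest* in each of the 8 mice, stacked by transcript (Mest-211, Mest-203 and the sum of the other 9). Mest-211 is the largest part of every bar, from 11.47 FPKM in m49 to 219 FPKM in m35.

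At the level of transcripts, 23145 transcripts were above 0 in all 8 mice with a mean above 2 FPKM at PN21 or PN98, and 5 transcripts of the 4 genes were among them. The log2 fold changes without a pseudocount were 2.17 for Mest-211 (adjusted p = 0.139 from limma), 2.00 for Mest-203 (0.148), 3.57 for the transcript of *Sfrp5* (0.131), 2.09 for that of *Bmp3* (0.104) and 2.74 for that of *Npr3* (0.0586). None of the 5 passed an adjusted p of 0.05 with limma, while all 5 had an unadjusted p under 0.05. Among all transcripts tested 0.717% passed the adjusted threshold as higher at PN98 and 6.94% the unadjusted one.

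Since each gene separated the ages completely, a correlation over all 8 mice would mostly restate the age difference, and the order of the mice was compared within each age. Within PN98, *Mest*, *Sfrp5* and *Bmp3* ran in the same order from m35 through m114 and m106 down to m125. *Npr3* differed by 1 exchange, with m114 above m35. Within PN21, *Mest*, *Bmp3* and *Npr3* ran from m145 through m1 and m138 down to m49, and *Sfrp5* differed by 1 exchange, with m138 above m1. Each age holds 6 pairs of mice, and of the 12 pairs in all *Mest* and *Bmp3* put 12 in the same order. *Mest* ordered 11 of 12 pairs as *Sfrp5* did and 11 of 12 as *Npr3* did, *Bmp3* likewise ordered 11 of 12 as each of them did, and *Sfrp5* and *Npr3* shared the order of 10 of 12. After scaling to genes outside the mitochondrial genome the counts lay between 9 and 11 of 12, and with median of ratios scaling they did not change.

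Many other genes shared the order within PN98. Of the other 15919 genes tested, 18.3% put the 4 PN98 mice in the order of *Mest*, and 8.66% put them in the order of *Npr3*. For 4 mice 24 orders are possible. The share for *Mest* was 7.07% under median of ratios scaling and 12.3% when scaled to genes outside the mitochondrial genome. The order of *Mest* within PN21 was shared by 4.52% of genes and the order at both ages by 1.34%, or by 0.503% and 0.521% under these scalings. On the deposited scale 3 genes tested (0.0188%) had both the order of *Mest* at each age and all PN98 mice above all PN21 mice, namely *Bmp3*, *Vgll3* and *Pkp2*, the last 2 of which were singled out after their values were seen. After median of ratios scaling 2 genes did (0.0126%), and after scaling to genes outside the mitochondrial genome 7 did (0.044%). The factor that median of ratios scaling divides by also ran in the order of *Mest* within PN98. It was 1.15 in m35, 0.954 in m114, 0.909 in m106 and 0.771 in m125. The sums of several marker lists moved with the order within PN98 on the deposited scale, the only scale on which they are given. The summed level of 8 fat progenitor genes was 1377 FPKM in m114, 1202 in m35, 680.5 in m106 and 395 in m125, the order of *Npr3*, and it put 12 of 12 same-age pairs in the order of *Npr3*, 11 of 12 in that of *Mest* and *Bmp3* and 10 of 12 in that of *Sfrp5*. *Dpt*, which the paper lists among white adipocyte markers, was the largest part of this sum, at 1048 FPKM in m114 and 809 in m35. *Dpt*, *Pi16* and *Dlk1* were higher in m114 than in m35, and *Pdgfra*, *Cd34*, *Ly6a*, *Dpp4* and *Thy1* were higher in m35. The summed level of 6 endothelial genes was 727 FPKM in m35, 468 in m114, 424 in m106 and 213 in m125, and that of 7 macrophage genes was 812, 449, 345 and 179 FPKM. Their single genes differed. *Cdh5*, *Egfl7*, *Cldn5*, *Cd68*, *Csf1r*, *Lyz2* and *Itgam* ran in the order of *Mest*. *Pecam1*, *Kdr* and *Tek* were higher in m106 than in m114, and *Adgre1*, *Cd163* and *Mrc1* were higher in m114 than in m35. The summed level of 10 lymphocyte genes was 761 FPKM in m35 and 14.3 in m125, with m106 above m114, and it spanned 327 to 820.2 FPKM at PN21. The summed level of 8 brown adipocyte genes ran in the opposite order, with 375 FPKM in m35, 1035 in m114, 2440 in m106 and 4251 in m125. Among them *Ucp1*, the uncoupling protein of brown and beige fat cells, was listed at 7.41 FPKM in m35, 56.3 in m114, 278 in m106 and 356 in m125, the reverse order of *Mest*, which 5.19% of genes tested shared. Skeletal muscle genes summed to 8.21 to 442 FPKM at PN21 and to 377 to 2668 FPKM at PN98, highest in m106, and epithelial genes to 2.75 to 29.2 FPKM and to 0.640 to 2.73 FPKM. Among the muscle genes, *Actn3* and *Tcap* passed as higher, with adjusted p of 0.0310 and 0.0269 from limma. All 8 muscle genes tested were under 0.05 before adjustment. *Epcam* was the 1 epithelial gene that passed, as lower (adjusted p = 0.0402 from limma). These calls were lost without the filter on low values. Without 1 mouse, *Actn3* and *Tcap* each lost the call in 5 of 8 fits, and *Epcam* in 5 of 6. The part of these cell types in the levels and the order of the 4 genes was not tested.

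**Figure D4:**
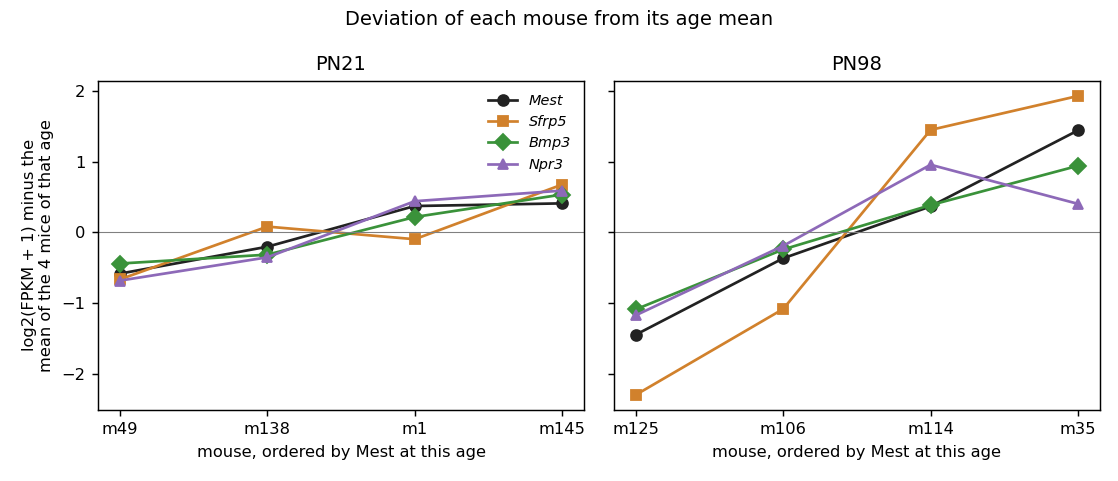
Log2(FPKM + 1) of the 4 genes in each mouse minus the mean of the 4 mice of that age, with the mice ordered by *Mest*. The lines rise together at both ages, apart from m1 in *Sfrp5* at PN21 and m35 in *Npr3* at PN98.

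The genes most alike to each of the 4 were taken by Pearson r of log2(FPKM + 1) over the 8 mice among all genes tested, as a description in which the age difference is included. The 5 nearest to *Mest* were *Bmp3* (r = 0.991), *Vgll3*, a cofactor of TEAD transcription factors (0.991), *Lrrc3* (0.988), *Rpap3* (0.982) and *Sptbn1*, a beta spectrin of the membrane skeleton (0.982). The 5 nearest to *Bmp3* were *Vgll3* (0.993), *Pkp2*, which encodes the desmosome protein plakophilin 2 (0.992), *Mest* (0.991), *Rpap3* (0.987) and *Sptbn1* (0.983). The 5 nearest to *Sfrp5* were *Ccn5*, a secreted matricellular protein (0.986), *Cys1* (0.986), *C6*, a complement component (0.984), *Snx32* (0.980) and *Serpine2*, a secreted protease inhibitor (0.980). The 5 nearest to *Npr3* were *Pltp*, the phospholipid transfer protein of lipoproteins (0.992), *Htra3*, a secreted serine protease (0.991), *Tmem45b* (0.991), *Cxcl14*, a chemokine (0.988) and *Ahnak*, a large scaffold protein (0.986). *Npr3* stood further from *Mest* and *Sfrp5*, at rank 58 in the list of *Mest* against rank 8 for *Sfrp5*. In the list of *Sfrp5* it was at rank 89 against rank 21 for *Bmp3*. From *Bmp3* it stood little further than *Sfrp5* did, with r = 0.966 (rank 23) against 0.972 (rank 15). Of these neighbours *Vgll3*, *Pkp2* and all 5 near *Npr3* passed the adjusted threshold with limma, and they were picked by their likeness over all 8 mice to genes that separate the ages. Each of these 7 calls was lost without m49, m106 or m138, with adjusted p between 0.0535 and 0.115 over the fits that lost a call, and for some of the 7 also without m1, m114 or m145. Of these, *Vgll3*, *Pltp* and *Cxcl14* also lost the call without the filter on low values. *Vgll3* went from a mean of 1.21 FPKM at PN21 to 8.65 at PN98, *Pkp2* from 3.20 to 19.3 and *Pltp* from 39.8 to 188.

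White adipocyte genes summed to a higher level in each PN98 mouse than in each PN21 mouse. The sum over 12 listed genes was 16943 to 33425 FPKM at PN21 and 41700 to 61856 FPKM at PN98, and 3 of the 12 passed the threshold, all of them higher. *Adipoq*, which encodes adiponectin, rose by a log2 fold change of 1.45 (adjusted p = 0.0102 from limma), from 817 to 1279 FPKM at PN21 to 2512 to 3653 FPKM at PN98. *Cidec*, a lipid droplet protein, rose by 2.16 (0.0019). For *Lipe*, hormone-sensitive lipase, the log2 fold change was 0.99 with an adjusted p of 0.0402 from limma, which lay between 0.0547 and 0.116 without any 1 mouse other than m35, and just above the threshold with a pseudocount of 0.1 (0.0510) or without the filter (0.0503). *Adipoq* and *Cidec* passed without any 1 mouse, with adjusted p of at most 0.0347. *Lep*, which encodes leptin, was listed at 50.6, 73.8, 25.4 and 82.4 FPKM in m1, m49, m138 and m145, and at 396, 162, 569 and 102 FPKM in m35, m106, m114 and m125 (log2 fold change 2.20, adjusted p = 0.0678). Its ages did not overlap, and its PN98 mice ran in the order of *Npr3*. Within PN98 the summed white adipocyte level ran from 41700 FPKM in m35 up to 61856 FPKM in m125, so that the mouse highest in *Mest* was the lowest in that sum. *Fabp4* was the largest part of the sum, at 27521 FPKM in m35 and 37466 in m125, and the single genes differed. Of the PN98 mice, m35 was lowest in *Fabp4*, *Lipe*, *Pparg*, *Cfd*, *Retn* and *Dgat2*. The lowest was m106 in *Adipoq* and *Plin1*, m114 in *Cidec* and *Pnpla2*, and m125 in *Lep* and *Lpl*.

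Set against *Adipoq* in the same mouse, a ratio added after the values were seen, none of the 4 genes separated the ages. *Adipoq* itself had a log2 fold change of 1.45, against a median of 0.88 over the 12 white adipocyte genes, and no other gene of that list was used as the divisor. *Mest* per 1000 FPKM of *Adipoq* was 21.9, 10.7, 22.2 and 29.8 FPKM in m1, m49, m138 and m145, and 93.6, 28.5, 32.7 and 12.1 FPKM in m35, m106, m114 and m125. The log2 difference in this ratio was 0.69 for *Mest* (two-sided exact permutation test, p = 0.343), 2.12 for *Sfrp5* (p = 0.114), 0.64 for *Bmp3* (p = 0.314) and 1.29 for *Npr3* (p = 0.0857).

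*Dlk1*, a marker of fat progenitors, fell by 2.91 on the log2 scale (standard error 0.34, adjusted p = 0.00495 from limma), from 7.61 to 25.4 FPKM at PN21 to 0.532 to 1.67 FPKM at PN98. It passed without any 1 mouse (adjusted p of at most 0.0249) and was the only one of 8 progenitor genes that passed with all mice. Of the caveola coat genes, which shape the membrane pits that are abundant in fat cells, 0 of 7 had an adjusted p under 0.05 with limma, 3 of 7 had an unadjusted p under 0.05, and their median log2 fold change was 0.53 against −0.21 over all genes. *Cav1* was listed at 415 to 847 FPKM at PN21 and at 471 to 1523 FPKM at PN98, and *Cavin1* at 179 to 340 FPKM and at 245 to 488 FPKM.

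Around *Mest* on chromosome 6, *Copg2*, a coatomer subunit on the opposite strand, was listed at 13.2 to 16.8 FPKM at PN21 and at 14.95 to 23.8 FPKM at PN98 (log2 fold change 0.40, adjusted p = 0.198). *Klf14*, an imprinted transcription factor gene, was below the filter on low values, with 0.208 to 0.472 FPKM at PN21 and 1.02 to 2.96 FPKM at PN98. It was listed higher in every PN98 mouse. Of the 9 neighbours 4 were tested and 0 passed with limma, with 0 at an unadjusted p under 0.05. With median of ratios scaling *Copg2* passed, with a log2 fold change of 0.62 and an adjusted p of 0.0336 from limma. *Mir335* lies in an intron of *Mest*, at chr6:30741299-30741396, and is shown because it is part of the same transcription unit. Its 5p form in RefSeq, with the seed (bases 2 to 8) in capitals, is as follows.
mmu-miR-335-5p: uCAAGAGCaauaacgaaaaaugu

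The hairpin was listed at 18.8 FPKM in m145 and at 0 in the other 7 mice, and a library of RNA with a poly(A) tail does not measure mature miRNAs.

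In the Wnt pathway around *Sfrp5*, of 9 other secreted Wnt antagonists 5 were tested and 0 passed with limma, with 3 at an unadjusted p under 0.05. On the deposited scale all 5 had a negative log2 fold change, with a median of −0.61. *Sfrp2* was listed at 61.6, 17.2, 48.4 and 63.6 FPKM in m1, m49, m138 and m145, and at 18.8, 9.10, 11.9 and 4.76 FPKM in m35, m106, m114 and m125 (log2 fold change −1.98, adjusted p = 0.0567, and 0.0473 with median of ratios scaling). *Sfrp4* was listed at 7.91 to 34.6 FPKM at PN21 and at 2.19 to 6.00 FPKM at PN98 (−1.75, adjusted p = 0.0558), and *Sfrp1* at 1.07 to 2.31 FPKM and at 0.994 to 1.93 FPKM (−0.30, 0.365). Thus *Sfrp5* and its relatives *Sfrp2* and *Sfrp4* had estimates of opposite sign. Of 19 Wnt ligands 4 were tested and 0 passed, with 2 at an unadjusted p under 0.05, and *Wnt5a*, a ligand that Sfrp5 binds, was listed at 3.04 to 4.82 FPKM at PN21 and at 3.94 to 9.75 FPKM at PN98 (0.39, 0.344). Of 15 Wnt receptors 9 were tested and 1 passed: *Fzd4* rose by 1.62 (standard error 0.20, adjusted p = 0.00621), from 11.8 to 17.4 FPKM to 35.4 to 58.7 FPKM. *Lrp5*, a coreceptor, was listed at 8.89 to 17.5 FPKM and at 10.2 to 18.6 FPKM (0.24, 0.538).

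The lists around *Bmp3* held 0 genes that passed with limma, against 2, 1, 3 and 1 genes at an unadjusted p under 0.05 among ligands, receptors, antagonists and targets. Of 14 other BMP ligands 5 were tested, of 9 BMP and activin receptors 7, of 10 antagonists 6 and of 6 target genes 6, with median log2 fold changes of 0.14, 0.40, −0.14 and −0.44, respectively. *Acvr2b*, the receptor of Bmp3, was below the filter at 0.721 to 1.06 FPKM at PN21 and 0.928 to 1.35 FPKM at PN98. *Bmp4* was listed at 1.43 to 2.22 FPKM and at 1.39 to 3.25 FPKM (log2 fold change 0.14, adjusted p = 0.674), and *Gdf10*, the nearest relative of *Bmp3*, at 7.67 to 14.5 FPKM and at 3.02 to 12.8 FPKM (−0.47, 0.440).

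The other 2 receptors of the natriuretic peptides had estimates of opposite sign, and the difference between receptors was not tested. *Npr1*, the signalling receptor for the atrial and brain peptides, was listed at 38.1 to 46.6 FPKM at PN21 and at 21.4 to 37.6 FPKM at PN98 (log2 fold change −0.39, adjusted p = 0.233), so that *Npr3* was below *Npr1* in each PN21 mouse and above it in each PN98 mouse. *Npr2*, the receptor for the C-type peptide, rose by 0.98 (standard error 0.18, adjusted p = 0.0224 from limma), from 17.0 to 27.4 FPKM to 38.2 to 43.9 FPKM. In the list of receptors and effectors 7 of 9 genes were tested and 3 passed, all higher: *Npr2*, *Lipe* and *Pde3b*, a phosphodiesterase of fat cells, with a log2 fold change of 1.40 (0.0245). Leaving out any 1 mouse other than m35 ended the calls of *Lipe* and *Pde3b* (0.0558 to 0.0672 for *Pde3b*), and leaving out m49, m106, m114, m138 or m145 ended that of *Npr2* (0.0613 to 0.0697). In the list of peptides and processing enzymes 3 of 7 were tested, and *Mme*, which encodes the peptidase neprilysin, had a log2 fold change of 1.10 with an adjusted p of 0.0473 from limma, which lay between 0.0644 and 0.126 without any 1 mouse other than m35, and above the threshold with a pseudocount of 0.1 (0.0579) or without the filter on low values (0.0662). *Nppc*, which encodes the C-type peptide, did not exceed 0.0918 FPKM in any mouse.

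**Figure D5:**
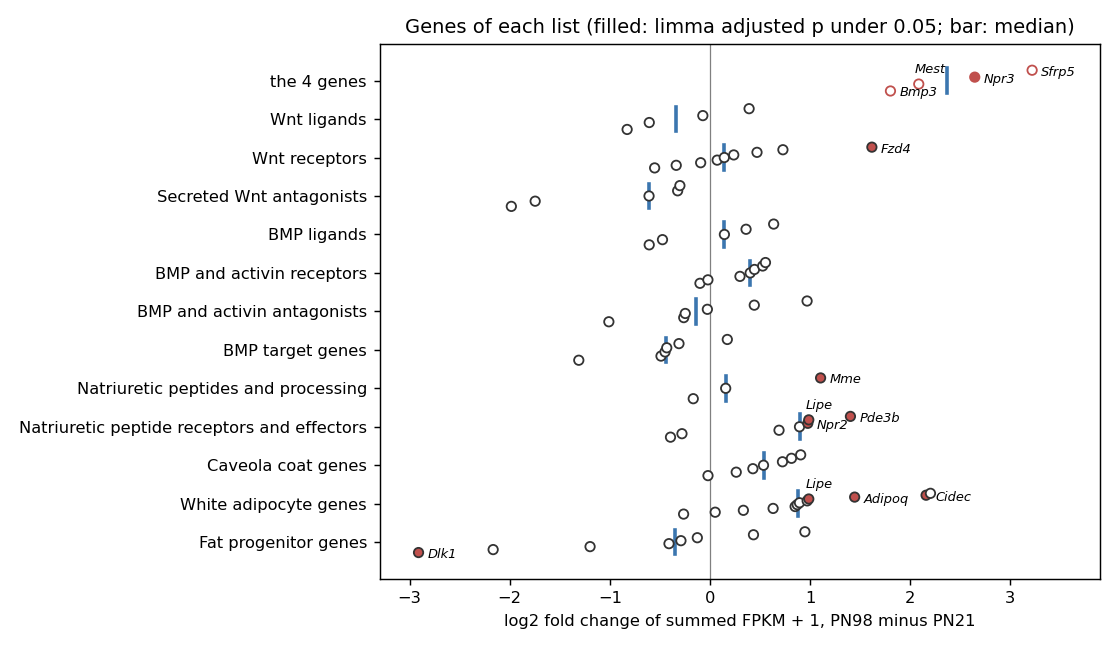
Log2 fold change of summed FPKM + 1 (PN98 minus PN21) for the 4 genes and for each tested gene of 12 lists, with a bar at the median of each list and filled circles where the limma adjusted p was under 0.05. *Sfrp5* lies at 3.22, and the tested secreted Wnt antagonists all lie below 0 on the deposited scale.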

How the data were processed

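Directional paired-end libraries were made from poly(A)+ RNA of the 8 ING WAT samples. The submitters' processing notes name CASAVA 1.8.2, STAR 2.3.0, Cufflinks 2.1.1 and the mm10 build, and the deposited values are FPKM per transcript and mouse. In 40506 of 91969 rows the decimal marks were lost. They were restored from the average, SD and score columns of the same table, made by the authors, which left 1 reading for 40314 rows. The other 192 rows had more than 1 reading and were left out. The 5027 restored rows also held by a second deposited table were equal to it in all 8 mice. That table's fold changes, test statistics and p-values of the authors' own age comparison were not used. The deposited SD spans 10 values per row, of which 8 are the mice here. Read depth is unknown. The FPKM summed over all genes were 1847065 to 2958386 at PN21 and 1548043 to 1729332 at PN98.

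Transcripts were summed by gene with GENCODE M21 names. Genes with a mean summed FPKM of at least 1 over the 8 mice were tested with limma 3.58.1 in R 4.3.3 on log2(FPKM + 1) over the 8 mice with age as the only term and Benjamini-Hochberg adjustment. Transcripts above 0 in all mice with a mean above 2 FPKM at either age were tested on log2 FPKM. Single genes were tested by an exact permutation test in SciPy 1.17.1, and the limma fit was tested on simulated data. The labels name mice by number only, so p-values measure the spread between these samples. Mice carry no replicate number shared between ages. Alternatives were other scalings, a pseudocount of 0.1, no filter, sample weights and leaving out each mouse.

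The members and lists were chosen with earlier results of these data known. Named were the 4 genes, the 5 genes with the highest Pearson r to each, the listed genes that passed, and further listed genes set by role.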

Additional observations from a re-analysis of the deposited data

Results flagged for a closer look

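In 52 groups of 4 mice checked for a mouse far from the other three by Dixon's criterion, 5 stood apart, where chance gives about 1 in 20. At PN21 Mest-203 was listed at 5.78 FPKM in m1, against 1.67 to 1.96 FPKM in the other PN21 mice. *Sfrp1* was listed at 1.07 FPKM in m49, against 2.14 to 2.31 FPKM in the other PN21 mice. *Sfrp4* was listed at 2.19 FPKM in m125, against 5.60 to 6.00 FPKM in the other PN98 mice. *Nppc* was listed at 0.0348 FPKM in m138 and at 0 in the other PN21 mice, and *Mir335* at 18.8 FPKM in m145 and at 0 in the other PN21 mice.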

How the results depend on the processing

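No paired analysis was possible because the mice of the 2 ages share no replicate numbers in the labels. The 4 genes had a positive log2 fold change under every alternative run at gene level, and *Npr3* passed an adjusted p of 0.05 under each scaling, filter, pseudocount and weighting, while the calls of *Mest*, *Sfrp5* and *Bmp3* changed with the scaling or the weights. With median of ratios scaling 4 of the 4 genes passed, with changes of 2.31 for *Mest*, 3.40 for *Sfrp5* and 1.99 for *Bmp3*. With scaling outside the mitochondrial genome 3 passed, with 2.33 for *Mest* and 2.01 for *Bmp3*. With limma sample weights 4 passed, with 1.82 for *Mest*, 2.72 for *Sfrp5* and 1.66 for *Bmp3*. At transcript level that of *Bmp3* passed with median of ratios scaling (2.32) and sample weights (2.09), Mest-211 with sample weights (2.14), and that of *Npr3* with zeros kept (2.64), median of ratios scaling (2.97), scaling outside the mitochondrial genome (2.99) and sample weights (2.81). Divided by *Adipoq*, an alternative chosen after seeing the data, the log2 differences were 0.69 for *Mest*, 2.12 for *Sfrp5*, 0.64 for *Bmp3* and 1.29 for *Npr3*, and the ages overlapped. The cause was not tested.

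Leaving out each mouse in turn gave 1.61 to 2.57 for *Mest*, 2.58 to 3.98 for *Sfrp5*, 1.49 to 2.16 for *Bmp3* and 2.33 to 3.03 for *Npr3*, with 0 to 4 of the 4 genes passing (0 without m49, m138, m106 or m114, 1 without m1 or m145, 3 without m35 and 4 without m125). Across all genes 105 to 696 were then higher and 115 to 2904 lower, against 385 and 489 with all mice. For transcripts the ranges were 12 to 356 higher and 31 to 1414 lower, and for listed genes 3 to 15 higher and 1 to 19 lower. Rank agreement within ages stayed between 77.8% and 100% of pairs.

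Genes higher at PN98 numbered 774 with median of ratios scaling, 1168 with sample weights and 1 among rows whose values needed no restoring. Genes lower numbered 279 with scaling outside the mitochondrial genome, 3555 with sample weights and 3 among the intact rows. Transcripts higher numbered 265 with zeros kept, 364 with median of ratios scaling, 72 with a mean above 2 FPKM at both ages and 567 with sample weights, and lower ones 306 with zeros kept, 93 with scaling outside the mitochondrial genome, 35 with the mean above 2 FPKM at both ages and 1002 with sample weights. Listed genes higher numbered 23, 19 and 25 with median of ratios scaling, scaling outside the mitochondrial genome and sample weights, and 0 among the intact rows. Listed genes lower numbered 1 with a pseudocount of 0.1, 1 with scaling outside the mitochondrial genome, 20 with sample weights and 0 among the intact rows. *Bmp4* turned to −0.061 with sample weights and, leaving out each mouse, lay between −0.017 (without m35) and 0.26. The intact rows hold fewer genes (314 tested) and gave no value for the 4 genes.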
